A study of Mus musculus with 6 samples.

Results

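Viperin (Rsad2), Cmpk2, Rtp4, Xaf1, Ifi44, Ifi27l2a, Ifi35, Lgals3bp, Samhd1 and Phf11b are effector genes of the antiviral interferon response, and their values were read in all 6 libraries of a mouse leukemia experiment. These 10 genes were chosen by name from the 53618 named rows of the table, with earlier results of these data known. Of them, 8 reached 10 normalized counts in at least 3 libraries, the level needed for testing. A normalized count is a number of reads divided by the size factor of its library.

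The study asked what loss of 1 Usp18 allele does to the interferon-stimulated gene program of established acute myeloid leukemia. Bulk RNA-seq was made from GFP+Lin-c-Kit+ splenocytes of mice that carried Usp18+/f UBCER-Cre AE9a leukemia, 3 mice injected with oil and 3 with tamoxifen, and the cells were sorted 3 days after the first injection. Both groups share the AE9a oncogene (a truncated AML1-ETO fusion carried by a GFP retrovirus), the single floxed Usp18 allele and the tamoxifen-activated Cre. Only the tamoxifen group was meant to convert this allele and become Usp18+/Δ. The leukemia came from transduced fetal liver cells, and per the study's methods wild-type recipients were on the C57BL/6 background. The methods describe the mice as young adults of both sexes. The Cre is driven by the ubiquitin C promoter and so is not restricted to the leukemia cells, although the recipients do not carry it. No group received tamoxifen without the floxed allele, so the drug and the loss of the allele cannot be told apart.

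Type I interferon binds its receptor on the cell surface and activates a complex of transcription factors, which binds interferon-stimulated response elements in the promoters of target genes. USP18 is an interferon-induced protein that feeds back on this receptor. The effectors act at different steps of infection. Viperin makes a chain-terminating nucleotide from CTP, CMPK2 phosphorylates pyrimidine nucleotides in mitochondria, and SAMHD1 degrades deoxynucleotides. Others act on receptors and RNA (RTP4), on cell death (XAF1), on mitochondria (the IFI27 family) or on signaling complexes (IFI35).

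The libraries held 19164795 to 23770537 reads on named genes, so 3 reads correspond to 2.69 to 3.83 normalized counts. The library labelled tamoxifen 1 stood apart: its median correlation with the others was 0.913 against 0.981 to 0.990 for the rest, its mitochondrial reads were 0.00923% against 1.01% to 1.56%, and its deviation from the gene medians correlated with GC content (Spearman rho 0.70 across genes, against -0.22 to 0.036). The log2 differences below are therefore given with and without it. Usp18, the gene to be deleted, was not lower in the tamoxifen libraries. Usp18 (chr6:121245906-121270917, plus strand) had 217, 214 and 176 normalized counts in the oil libraries and 477, 329 and 284 in the tamoxifen libraries. All tamoxifen values were above all oil values, although the treatment was meant to remove an allele. Usp18 differed by 0.81 on the log2 scale (SE 0.25, limma adjusted p = 0.666) and 0.60 without tamoxifen 1 (adjusted p = 0.181). A sum over the gene does not separate deleted from intact exons, the other allele was meant to stay intact, and Usp18 is itself interferon-induced. The sum therefore does not show whether the allele was removed, and oil and tamoxifen below mean the libraries so labelled. Kit, on which the cells were sorted, was at 8990, 8043 and 7512 normalized counts in oil and at 4687, 7749 and 10976 in tamoxifen.

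Rsad2 and Cmpk2 are neighbours on chromosome 12 that point away from each other, 12751 bases apart in GENCODE vM21 (GRCm38). The starts of these genes, of Xaf1 and of Ifi44 are shown since they are those of the neighbouring pair near its detection limit in oil, of a gene whose groups did not overlap and of a gene with no reads. Each sequence covers 250 bases before to 50 bases after the RefSeq start (GRCm38.p6), read 5′ to 3′ on the gene's own strand. Both strands were searched. Capitals mark the core of the interferon-stimulated response element (GAAA, any 2 bases and GAAA again, or TTTC, any 2 bases and TTTC on the other strand) or the closer pair GAAANGAAA (TTTCNTTTC on the other strand), a spacing added after the promoters were seen. Positions count from the start, with the base before it as -1. The windows are chr12:26456403-26456702 (minus strand) for Rsad2, chr12:26468965-26469264 (plus strand) for Cmpk2, chr11:72301379-72301678 (plus strand) for Xaf1 and chr3:151749861-151750160 (minus strand) for Ifi44.
Rsad2: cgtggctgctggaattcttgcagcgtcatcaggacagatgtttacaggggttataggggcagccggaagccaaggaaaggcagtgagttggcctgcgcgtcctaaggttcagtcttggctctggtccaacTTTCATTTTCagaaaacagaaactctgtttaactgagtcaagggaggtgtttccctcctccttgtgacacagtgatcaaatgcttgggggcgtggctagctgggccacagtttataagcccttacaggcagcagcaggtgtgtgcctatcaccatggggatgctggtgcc
Cmpk2: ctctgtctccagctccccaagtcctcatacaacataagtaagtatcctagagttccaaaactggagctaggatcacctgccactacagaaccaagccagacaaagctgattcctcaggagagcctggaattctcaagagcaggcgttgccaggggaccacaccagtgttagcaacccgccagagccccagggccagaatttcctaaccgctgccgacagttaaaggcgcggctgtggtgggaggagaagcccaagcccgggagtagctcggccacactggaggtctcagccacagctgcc
Xaf1: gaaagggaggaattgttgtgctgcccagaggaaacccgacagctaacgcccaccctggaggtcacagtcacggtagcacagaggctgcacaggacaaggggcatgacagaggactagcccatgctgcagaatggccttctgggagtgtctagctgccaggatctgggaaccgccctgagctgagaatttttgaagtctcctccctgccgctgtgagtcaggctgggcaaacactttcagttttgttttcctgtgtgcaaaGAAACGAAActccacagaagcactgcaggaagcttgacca
Ifi44: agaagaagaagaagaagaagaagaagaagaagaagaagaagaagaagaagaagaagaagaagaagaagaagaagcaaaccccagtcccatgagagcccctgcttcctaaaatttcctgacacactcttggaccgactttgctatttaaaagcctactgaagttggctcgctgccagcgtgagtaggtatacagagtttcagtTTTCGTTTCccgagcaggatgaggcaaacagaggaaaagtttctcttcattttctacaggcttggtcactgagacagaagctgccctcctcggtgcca
The Rsad2 window held the response element core at -120 to -111. The Cmpk2 window held none of the motifs searched. Xaf1 had the closer GAAA pair at 11 to 19, just after its start, and Ifi44 had it at -48 to -40.

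Promoter windows were found for 8 of the 10 genes, not for Rtp4 and Ifi27l2a. The response element core occurred in 2 of the 8, Rsad2 and Phf11b (-50 to -41), and in 3.44% of all 32851 promoter windows. GAAANGAAA occurred in 3, Xaf1, Ifi44 and Ifi35 (14 to 22), against 3.17% of all windows. As this spacing was added after the promoters were seen, its count beside that share is no support. TTCNNNGAA, the gamma-activated sequence, reads the same on both strands and was present in Ifi35 (8 to 16) and Samhd1 (-235 to -227), against 8.3% of all windows. In Ifi35 this match and the GAAA pair share bases. Lgals3bp, like Cmpk2, had no match. A match is a description of letters and not of a bound site. The genes with matches included both Rsad2, with the largest ratio of mean normalized counts of the tested genes, and Ifi44, which had no reads.

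Rsad2 had the largest ratio of mean normalized counts of the tested antiviral effectors. The order on the log2 scale depended on the number added before taking logs. With 5 added, the log2 difference was 1.935 for Rsad2 and 1.98 for Rtp4. Rsad2 (ENSMUSG00000020641.16, chr12:26442746-26456452, minus strand) encodes viperin, a radical SAM enzyme that inhibits many viruses. In oil it had 1.80, 2.89 and 1.86 normalized counts, which are 2, 3 and 2 reads. In tamoxifen it had 29.4, 24.2 and 15.5, from 23, 24 and 17 reads. The gene was near its detection limit in every oil library and clearly present in every tamoxifen library, and the groups did not overlap. The means were 2.18 ± 0.617 and 23.0 ± 7.05 (SD, n = 3 each). Summed reads were 7 against 64, a ratio of 10.3 after size factors with a 95% exact counting interval of 4.71 to 26.6. On log2(value + 1), the difference was 2.89 (SE 0.42, 95% interval 1.89 to 3.89), which limma did not call after adjustment over all 12298 genes (adjusted p = 0.426). DESeq2 on the reads called it higher (log2 3.40, SE 0.78, adjusted p = 0.00550). Without tamoxifen 1 the difference was 2.70, and the adjusted p was 0.0971 with limma, 0.0566 with DESeq2 and 0.0556 with edgeR.

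Cmpk2 was low in all libraries and higher in tamoxifen. Cmpk2 (ENSMUSG00000020638.8, chr12:26469204-26479837, plus strand) is a mitochondrial kinase of UMP and CMP. Its oil values of 0.898, 3.86 and 7.43 normalized counts rest on 1, 4 and 8 reads. The tamoxifen values were 15.3, 18.2 and 11.8, from 12, 18 and 13 reads. The groups did not overlap, but the highest oil value and the lowest tamoxifen value were only a few reads apart. Means were 4.06 ± 3.27 and 15.1 ± 3.19 (SD, n = 3 each). The ratio of summed reads, 43 against 13, was 3.72 after size factors (95% exact counting interval 1.96 to 7.53). The log2 difference of 1.90 (SE 0.61, 95% interval 0.43 to 3.37) was not called by limma (adjusted p = 0.666) or DESeq2 (adjusted p = 0.650), and it was 1.88 without tamoxifen 1 (limma adjusted p = 0.323). Rsad2 and Cmpk2 passed the level needed for testing through the tamoxifen libraries alone, since no oil library reached 10 for either gene.

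**Figure D1:**
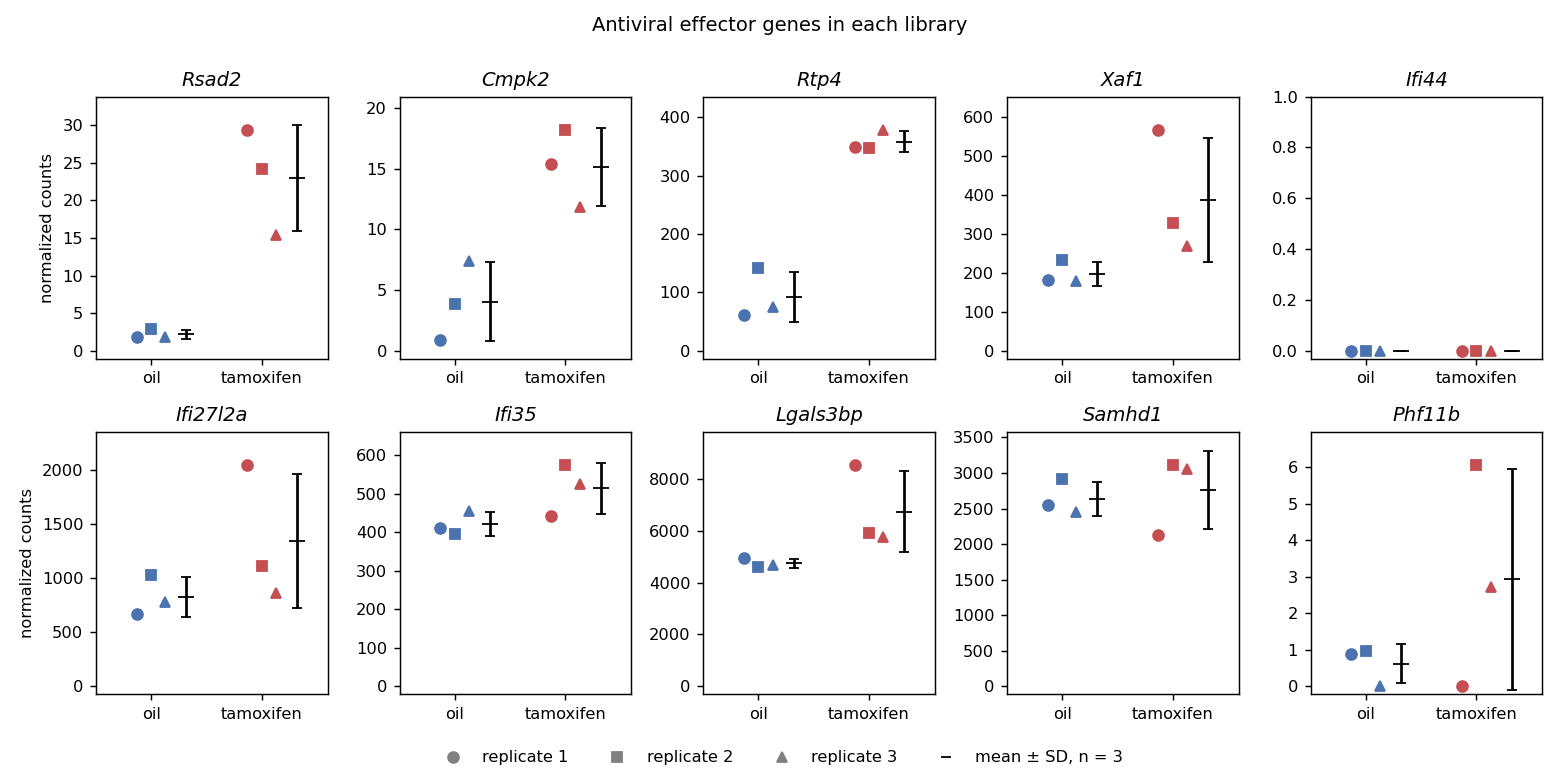
Normalized counts (vertical axis, linear) of the 10 genes in each oil (blue) and tamoxifen (red) library, with replicate number by symbol and the mean ± SD (n = 3) in black. For Rsad2, Cmpk2, Rtp4, Xaf1 and Lgals3bp every tamoxifen point lies above every oil point, the circle of tamoxifen 1 is the highest point for Rsad2, Xaf1, Ifi27l2a and Lgals3bp, and Ifi44 is at 0 in all 6 libraries.

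Samhd1 was abundant in every library, and no difference between the groups was called. Samhd1 (ENSMUSG00000027639.16, chr2:157097533-157135265, minus strand) encodes a triphosphohydrolase that lowers the deoxynucleotide supply of viruses. The oil values were 2544, 2909 and 2450.4 normalized counts. The tamoxifen values were 2130.5, 3109 and 3049. Tamoxifen 1 was the lowest library and the other tamoxifen libraries were the highest, so the groups overlapped. Samhd1 differed by 0.05 on the log2 scale (SE 0.19, 95% interval -0.41 to 0.51, limma adjusted p = 0.896). It was 0.23 (interval 0.03 to 0.43, adjusted p = 0.350) without tamoxifen 1 and turned to -0.044 without tamoxifen 2 and to -0.030 without tamoxifen 3.

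A list of 25 other genes of pyrimidine and deoxynucleotide metabolism gave no call in 23 tested, in either direction, as for 0% of all genes, and 0 of them had an unadjusted p under 0.05 in limma, where 3.23% of all genes were higher and 1.24% lower. Of the 23, 13 lay above 0 and 10 below, with a median log2 difference of 0.050 (0.013 without tamoxifen 1), against -0.017 for all genes. The smallest p-values belonged to Ctps2, a CTP synthase, Dnph1, a nucleotide hydrolase, and Rrm1, the large subunit of ribonucleotide reductase. Ctps2 was at 1158, 1096 and 1039 normalized counts in oil and at 527, 967 and 911 in tamoxifen (log2 difference -0.50, SE 0.26, limma adjusted p = 0.666). Its groups did not overlap, but without tamoxifen 1 the log2 difference was -0.22. The log2 differences of Dnph1 and Rrm1 were 0.43 (SE 0.24) and -0.40 (SE 0.24), both with overlapping groups, and without tamoxifen 1 they were 0.33 and -0.15. DESeq2 called 0 of the list too, and the list had no common direction.

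Rtp4 was higher in every tamoxifen library, at nearly the same level in each. Rtp4 (ENSMUSG00000033355.6, chr16:23520291-23614222, plus strand) encodes a chaperone of G protein-coupled receptors that also binds RNA. In oil, Rtp4 had 61.1, 142 and 75.2 normalized counts. In tamoxifen it had 349, 348 and 378. The 3 tamoxifen libraries were close together, tamoxifen 1 included, and lay far above the highest oil library. The coefficient of variation was 46.5% in oil and 4.85% in tamoxifen, and the means were 92.7 ± 43.1 and 358 ± 17.4 (SD, n = 3 each). Rtp4 differed by 2.03 on the log2 scale (SE 0.33, 95% interval 1.24 to 2.83, limma adjusted p = 0.494). DESeq2 called Rtp4 higher (log2 1.95, SE 0.36, adjusted p = 0.000105). Without tamoxifen 1 the difference was 2.05, and Rtp4 was called by limma (adjusted p = 0.0274), edgeR (0.0248) and DESeq2 (4.39e-09). The annotated gene shares 39791 bases of its span with Gm45338 on the same strand and 525 with Masp1 on the other, and 9.28% of the 100-base stretches of its transcripts also occur in Gm45338, so reads of these genes may be divided or mixed. Its relatives Rtp1, Rtp2 and Rtp3 were at 0 in all 6 libraries.

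Xaf1 was higher in every tamoxifen library, with much of the distance set by tamoxifen 1. Xaf1 (ENSMUSG00000040483.15, chr11:72301629-72313733, plus strand) encodes a zinc-finger protein that binds the apoptosis inhibitor XIAP. The oil values were 181, 233 and 178 normalized counts. The tamoxifen values were 566, 326 and 267. The groups did not overlap, and tamoxifen 1 was 0.94 log2 units above the mean of the other tamoxifen libraries. Means were 197 ± 31.2 and 387 ± 158 (SD, n = 3 each). The log2 difference of 0.90 (SE 0.31, 95% interval 0.15 to 1.65) was not called by limma (adjusted p = 0.666) or DESeq2 (adjusted p = 0.402). Without tamoxifen 1 it was 0.59 (SE 0.17, limma adjusted p = 0.206).

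Ifi44 was not detected. Ifi44 (ENSMUSG00000028037.13, chr3:151730922-151749960, minus strand) encodes a cytoplasmic protein induced by interferon. It had 0 reads in each of the 6 libraries, which allows up to 2.69 to 3.83 normalized counts in a library, and so it was not tested. Its neighbour and relative Ifi44l was also at 0 in all 6 libraries.

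Ifi27l2a was abundant in every library. Ifi27l2a (ENSMUSG00000079017.3, chr12:103442167-103443680, minus strand) belongs to the IFI27 family of small hydrophobic proteins. Its oil values were 669, 1030.4 and 778 normalized counts. Its tamoxifen values were 2049, 1115 and 868. Oil 2 was above tamoxifen 3, so the groups overlapped, and tamoxifen 1 was 1.06 log2 units above the mean of the other tamoxifen libraries. The log2 difference was 0.63 (SE 0.35, 95% interval -0.20 to 1.45, limma adjusted p = 0.666) and 0.28 without tamoxifen 1 (interval -0.12 to 0.67, adjusted p = 0.562).

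The neighbouring family members Ifi27 and Ifi27l2b share no 100-base stretch with Ifi27l2a. Ifi27 was at 2116, 2159 and 2266 normalized counts in oil and at 3902, 2301.5 and 2118 in tamoxifen. Only tamoxifen 1 stood clear of the others, and the log2 difference of 0.29 (SE 0.25) was 0.019 without it. Ifi27l2b was at 176, 232 and 196 in oil and at 386, 301 and 295 in tamoxifen. Its groups did not overlap, with a log2 difference of 0.70 (SE 0.21, limma adjusted p = 0.666) and of 0.57 without tamoxifen 1 (adjusted p = 0.185).

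Ifi35 values overlapped between the groups. Ifi35 (ENSMUSG00000010358.13, chr11:101448407-101458698, plus strand) encodes a leucine-zipper protein that forms a complex with NMI. The oil values were 411, 397 and 456 normalized counts. The tamoxifen values were 442, 574 and 526. Tamoxifen 1 fell among the oil libraries and the other tamoxifen libraries were above them. The log2 difference was 0.28 (SE 0.18, 95% interval -0.14 to 0.70, limma adjusted p = 0.666) and 0.38 without tamoxifen 1 (interval 0.13 to 0.64, adjusted p = 0.218). The span of Ifi35 shares 815 bases with the antisense gene Gm11626, and since strand use in counting is not given in the sources used here, their reads may not be separate. Its partner Nmi, named for that complex after its values were seen, was at 692, 662 and 735 normalized counts in oil and at 619, 708 and 758 in tamoxifen, which overlap (log2 difference -0.0068, and 0.074 without tamoxifen 1).

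Lgals3bp had the highest normalized counts of the 10 genes. Lgals3bp (ENSMUSG00000033880.11, chr11:118392751-118402092, minus strand) encodes a secreted glycoprotein that binds galectins. The oil values were 4950.2, 4605 and 4671 normalized counts. The tamoxifen values were 8537, 5924 and 5776. Every tamoxifen library was above the tight group of oil libraries, and tamoxifen 1 was the highest. Means were 4742 ± 183 and 6746 ± 1553 (SD, n = 3 each). The log2 difference was 0.49 (SE 0.19, 95% interval 0.04 to 0.93, limma adjusted p = 0.666). Without tamoxifen 1 it was 0.30 (SE 0.073), which limma did not call (adjusted p = 0.160) and DESeq2 did (log2 0.32, adjusted p = 0.0167).

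Phf11b was near the detection limit. Phf11b (ENSMUSG00000091649.3, chr14:59320964-59341351, minus strand) belongs to a mouse cluster of PHD-finger genes. It had 1, 1 and 0 reads in oil and 0, 6 and 3 in tamoxifen, or 0.898, 0.965 and 0 against 0, 6.06 and 2.73 normalized counts. The groups overlapped through tamoxifen 1, which had no read. The ratio of the summed reads, 9 against 2, was 5.06 with a 95% exact counting interval of 1.05 to 48.1. This interval leaves out the spread between mice, and 6 of the 9 reads came from tamoxifen 2, so no difference is shown. Of its 100-base stretches, 13.8% also occur in Gm6904, Phf11a, Phf11c or Phf11d.

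Among these relatives, Phf11c was the only one at a level that could be tested. It had 46.7, 40.5 and 34.4 normalized counts in oil and 60.1, 91.9 and 98.2 in tamoxifen. The groups did not overlap, and tamoxifen 1 was the lowest tamoxifen library. Phf11c differed by 1.002 on the log2 scale (SE 0.29, limma adjusted p = 0.666), 1.22 without tamoxifen 1 by limma (adjusted p = 0.0819) and 1.24 by DESeq2, which called it (adjusted p = 0.0252). Phf11d had 0, 4.82 and 0 normalized counts in oil and 3.83, 11.1 and 7.28 in tamoxifen, and Phf11a had 1 read, in tamoxifen 2. Of the 11 listed relatives of the 10 genes, 9 were in the table, 3 were tested and limma called 0. Of the 3, 2 had an unadjusted p under 0.05, both higher (Phf11c and Ifi27l2b), where 3.23% of all genes passed upward and 1.24% downward. The relatives, too, were listed with earlier results of these data known, so this count is a description.

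Of the 8 tested antiviral effectors, limma called 0 at an adjusted p under 0.05, as it did for 0% of all 12298 genes tested. Before adjustment 5 had a limma p under 0.05, and these were higher (Rsad2, Cmpk2, Rtp4, Xaf1 and Lgals3bp), with 0 lower, where 3.23% of all genes passed upward and 1.24% downward. The same 5 genes had groups that did not overlap, against 7.86% of all genes higher in every tamoxifen library and 9.69% lower. Rsad2 and Cmpk2 had reached the level for testing in the tamoxifen libraries alone, so their presence among the 5, or in the counts below, is no support. Of the 6 genes at 10 or more in all libraries, 3 had an unadjusted p under 0.05 and groups that did not overlap. The genes were chosen with earlier results of these data known. The counts in this paragraph, set beside the shares of all genes, are therefore descriptions and no support. With 3 libraries against 3, the smallest two-sided p of an exact permutation test is 0.1, which each of the 5 genes reached. DESeq2 called 2 of the 8 genes to which it gave an adjusted p, Rsad2 and Rtp4, both higher, where it called 0.437% of the 15784 such genes higher, and edgeR called 0, as it did for 0% of its genes (594 of all genes had an unadjusted p under 0.05). Without tamoxifen 1, 7 of the 8 had an unadjusted limma p under 0.05 and were higher, Ifi27l2a being the exception, where 6.04% of all genes passed upward. Besides Rsad2 and Cmpk2 these were Rtp4, Xaf1, Ifi35, Lgals3bp and Samhd1, which were at 10 or more in all libraries. Limma called Rtp4 alone without tamoxifen 1 (0.309% of all genes were called higher) and so did edgeR (0.341%), whereas DESeq2 called Rtp4 and Lgals3bp (1.28%). With library weights, which gave tamoxifen 1 a weight of 0.0377, limma called Rsad2, Rtp4 and Lgals3bp (3.82% of all genes were called higher).

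**Figure D2:**
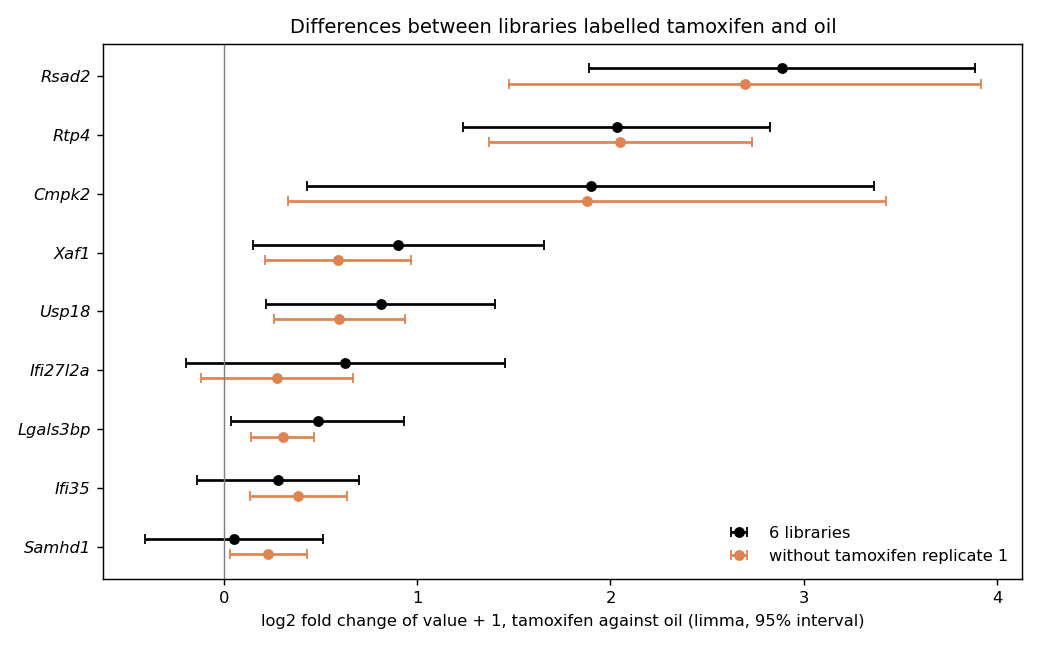
Log2 difference of value + 1 between tamoxifen and oil (horizontal axis, limma estimate with its 95% interval) for the 8 tested effectors and the targeted gene Usp18, with 6 libraries (black) and without tamoxifen 1 (orange). The estimates run from 0.05 for Samhd1 to 2.89 for Rsad2, those of Rsad2, Rtp4 and Cmpk2 stay at or above 1.88 without tamoxifen 1, and the intervals of Ifi27l2a, Ifi35 and Samhd1 include 0 with 6 libraries.

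The filter fixed the direction of Rsad2 and Cmpk2, which passed it through the tamoxifen libraries alone, so a count of directions or a median over the 8 tested genes is no support. The median log2 difference of the 8 was 0.77, and it was 0.56 under a filter of 1 CPM in 3 libraries, which those 2 genes did not pass. It was -0.017 for all genes tested. Without tamoxifen 1 the median of the 8 was 0.49, beside -0.021. Of the 8 genes, 4 were highest in tamoxifen 1 (Rsad2, Xaf1, Ifi27l2a and Lgals3bp), 3 in tamoxifen 2 (Cmpk2, Ifi35 and Samhd1) and 1 in tamoxifen 3 (Rtp4). The lowest library was oil 1 for 4 genes, oil 2 for 2, oil 3 for 1 and tamoxifen 1 for Samhd1. Correlation with the mean standardized profile of the 8 genes over 6 libraries was 0.99 for Rsad2, 0.97 for Rtp4, 0.90 for Cmpk2 and 0.87 for Xaf1, and 0.12 for Samhd1, although each gene is part of that mean. The libraries fall into 2 groups, and these values describe that split.

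**Figure D3:**
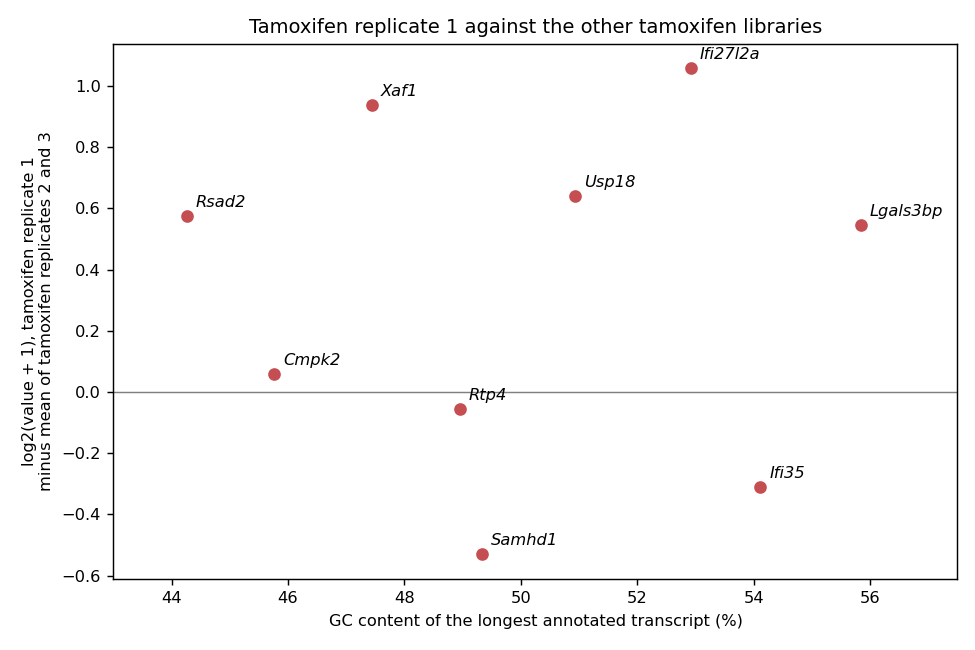
GC content of the longest annotated transcript (horizontal axis, %) against the log2 distance of tamoxifen 1 from the mean of tamoxifen 2 and 3 (vertical axis), with 1 point for each tested effector and for the targeted gene Usp18. Ifi27l2a and Xaf1 lie highest at 1.06 and 0.94, Rtp4 and Cmpk2 near 0, and Ifi35 and Samhd1 below 0, without an order by GC content among these genes.

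Tamoxifen 1 was higher for GC-rich genes across the transcriptome, so the distances of tamoxifen 1 are given beside the GC content of each gene. GC content ran from 44.3% for Rsad2 to 55.8% for Lgals3bp. Ifi35, at 54.1%, was 0.31 log2 units lower in tamoxifen 1 (-0.31), and Xaf1, at 47.4%, was 0.94 higher. Lgals3bp, at 55.8%, was 0.545 higher and Ifi27l2a, at 52.9%, was 1.06 higher. With GC content corrected, the log2 difference was 3.15 for Rsad2, 2.06 for Rtp4, 2.08 for Cmpk2 and 0.997 for Xaf1. It was 0.12 for Ifi35 and 0.27 for Lgals3bp, and none of these was called by limma (adjusted p = 0.158 for Rtp4 and 0.179 for Rsad2).

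Levels of different genes were compared per kilobase of annotated exon. In tamoxifen, Ifi27l2a had 2903 ± 1345 and Lgals3bp 2370 ± 546 normalized counts per kb, Samhd1 302 ± 59.9 and Ifi35 298 ± 38.6, Rtp4 168 ± 8.16 and Xaf1 82.5 ± 33.8 (SD, n = 3 each). Rsad2 had 5.31 ± 1.63, Cmpk2 3.63 ± 0.766 and Phf11b 2.47 ± 2.56. Within Ifi27l2a and Lgals3bp, within Samhd1 and Ifi35, and among Rsad2, Cmpk2 and Phf11b the neighbours did not differ beyond their spread. In oil, Ifi27l2a had 1784 ± 400.2 normalized counts per kb, Lgals3bp 1666 ± 64.4, Samhd1 288 ± 26.5 and Ifi35 244 ± 17.9. Rtp4 had 43.5 ± 20.2 and Xaf1 42.1 ± 6.66, which did not differ beyond their spread, and Rsad2 had 0.503 ± 0.142 and Cmpk2 0.976 ± 0.785. Rtp4 was above Xaf1 per kb in 1 of 3 oil libraries and in 3 of 3 tamoxifen libraries, and Rsad2 was above Cmpk2 in 1 of 3 and 3 of 3. Since Rsad2 and Cmpk2 did not differ beyond their spread in either group, and Rtp4 and Xaf1 did not in oil, no change of order is shown.

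**Figure D4:**
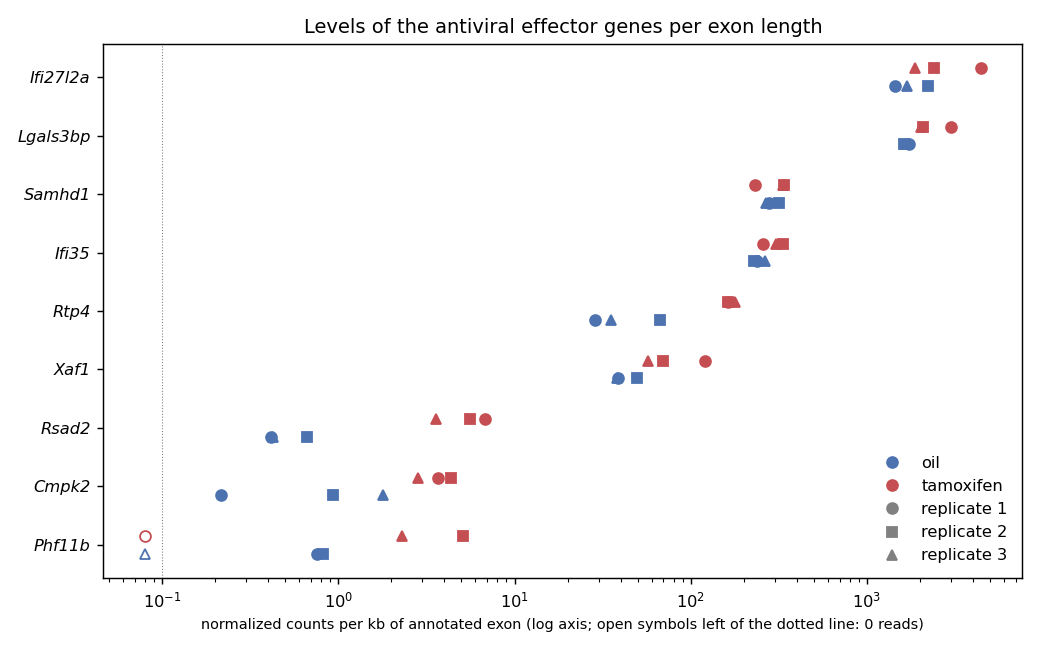
Normalized counts per kb of annotated exon (horizontal log axis) of the 9 genes with reads in each oil (blue) and tamoxifen (red) library, with replicate number by symbol and 0 reads as open symbols left of the dotted line. Ifi27l2a and Lgals3bp lie highest, at mean levels of 2903 and 2370 per kb in tamoxifen, and Rsad2 moves from a mean of 0.503 to 5.31.

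A longer list of interferon effectors was read beside the 10 genes. It too was chosen with earlier results of these data known, so its counts beside the shares of all genes are a description. Of 35 further genes, 30 were tested, 19 lay above 0 and 11 below, and the median log2 difference was 0.21 (0.15 without tamoxifen 1). Limma called 0 of them, 5 had an unadjusted p under 0.05 and were higher (3.23% of all genes), 0 were lower at that level (1.24%), and DESeq2 called 2 (0.437%), Rnf213 and Tdrd7. Without tamoxifen 1, limma called 1 (0.309%), Rnf213, and 12 had an unadjusted p under 0.05 and were higher (6.04%). DESeq2 without tamoxifen 1 called 7 higher (1.28%), among them Rnf213, Tdrd7 and Ddx60. Rnf213, a large ubiquitin ligase, had 2269, 3772 and 2892 normalized counts in oil and 10723, 5783 and 6096 in tamoxifen (log2 difference 1.31, SE 0.30, limma adjusted p = 0.666). It was called without tamoxifen 1 (log2 1.03, limma adjusted p = 0.0487). Tdrd7, a tudor-domain protein, had 191, 121 and 147 in oil and 438, 269 and 329 in tamoxifen (log2 difference 1.17, SE 0.27, and 0.98 without tamoxifen 1). Ddx60, a helicase of RNA sensing, had 15.3, 5.79 and 3.71 in oil and 17.9, 40.4 and 45.5 in tamoxifen (log2 difference 2.04, SE 0.60, and 2.45 without tamoxifen 1). In these 3 genes every tamoxifen library was above every oil library. Across the list, groups did not overlap for 9 of the 30 genes higher and 3 lower, where 7.86% and 9.69% of all genes did so.

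The genes outside the effectors whose pattern over the 6 libraries was most like their mean profile were BC035947 (Pearson r 0.992), Ogfrl1 (0.989), Gpx3 (0.987), Frmd6 (0.985) and Ces2e (0.984). Gpx3, a glutathione peroxidase, had 3.59, 5.79 and 4.64 normalized counts in oil and 40.9, 47.5 and 20.0 in tamoxifen. Ogfrl1 had 702, 752 and 734 in oil and 939, 907 and 905 in tamoxifen. As these genes were found by searching all those tested, their likeness is a description.

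Markers of other cell types were read in the same libraries. The summed normalized counts of 10 macrophage markers were 100.3 to 236 in oil and 278 to 377 in tamoxifen, with 7 tested, all above 0, and none of the 10 at 0 in all libraries. Sums of 7 B cell markers were 28.0 to 56.6 against 69.1 to 197, with 2 tested, both above 0, and Ms4a1 and Ighd at 0 in all 6 libraries. Of 6 NK cell markers, Ncr1, Klrb1c, Klrd1 and Eomes were at 0, and the sums of 59.8 to 159 against 193 to 662 were nearly all Nkg7, at 159, 58.9 and 89.1 in oil and 644, 193 and 661 in tamoxifen. Those of 8 neutrophil markers were 15.3 to 28.0 against 40.0 to 69.7, with Ly6g at 0. Of these 8, 5 were higher in every tamoxifen library (S100a8, S100a9, Ltf, Camp and Ngp), as were 7.86% of all genes tested. S100a8 was at 1.80, 0 and 1.86 in oil and 12.8, 21.2 and 6.37 in tamoxifen. These 5 genes did not reach the level for testing, and Ltf and Ngp came near the floor of 3 reads in tamoxifen libraries. The only neutrophil marker tested, Mmp8, was not above 0, at 8.98, 19.3 and 13.0 in oil and 0, 8.08 and 13.6 in tamoxifen. T cell markers overlapped, at 40.5 to 69.6 against 33.6 to 103.5, with Cd3e and Cd8a at 0, and so did plasmacytoid dendritic cell, conventional dendritic cell, erythroid, endothelial and leukemia markers. No marker gene of these lists was called by limma with or without tamoxifen 1. At most 2 markers were tested in each of the T cell, B cell, NK cell, neutrophil, conventional dendritic cell and endothelial lists. Limma with 6 libraries called 0% of all genes, so the lack of calls does not show equal levels. The macrophage, B cell, NK cell and neutrophil sums were thus higher in every tamoxifen library, as were Rsad2, Cmpk2, Rtp4, Xaf1 and Lgals3bp, and their part in these differences was not tested. In bulk RNA, fewer cells of a type and less RNA per cell cannot be told apart.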

How the data were processed

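GFP+Lin-c-Kit+ leukemia cells from 3 oil and 3 tamoxifen mice were profiled by bulk RNA-seq, with 1 library per mouse, and groups and replicate numbers came from the labels. Per the labels, RNA was extracted with Trizol and the kit was a Nextera DNA Flex library kit. The submitters' processing notes name STAR, DESeq2 and mm10, and versions, annotation, strand setting and filters are not given in the sources used here.

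The deposited values are a normalized signal, the read count of each gene scaled by the authors with a size factor for each library. In each library 100% of values were whole multiples (tolerance 0.01 reads) of the value of 1 read, 0.898 to 1.28, which gave back whole reads. The table had 55450 rows. The 1832 rows without a gene name took 0.0400% to 0.0614% of reads and were left out. In 1402 rows a divided name was rejoined, 108 names were repeated and 27 had become dates. Of the 53618 named rows, 52048 matched GENCODE vM21 (GRCm38), which supplied coordinates, exon lengths and GC content. Promoters came from RefSeq (GRCm38.p6).

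Genes at 10 or more in at least 3 libraries (12298) were tested with limma 3.58.1 (R 4.3.3, trended eBayes) on log2(value + 1), a scale that understates changes of low genes. Two-sided p-values were adjusted by Benjamini-Hochberg over all genes tested, with a threshold of 0.05. Count tests on the recovered reads used DESeq2 1.42.0 (24247 genes with a read) and edgeR 4.0.16 (quasi-likelihood, 12340 genes). The procedure was tested on simulated counts with a dispersion of 0.05 for every gene and no library that stood apart. That simulation does not cover a library like tamoxifen 1. Other alternatives were TMM and upper-quartile scaling, no filter, a filter of 1 CPM in 3 libraries, pseudocounts of 0.5 and 5, library weights, a GC correction, a replicate block and each library left out. DESeq2 and edgeR without tamoxifen 1 were added after seeing the data. Counting intervals are 95% exact and, like the floor of 3 reads, cover counting error only, since PCR copies were not marked.

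The 10 genes and all lists were chosen with earlier results of these data known. Named besides them were Usp18, the relatives of the 10 genes, the 3 tested genes with the smallest limma p in each list and the 5 genes most alike in profile. Marker lists are given as sums, and 1 marker gene is not reported here.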

Additional observations from a re-analysis of the deposited data

How the results depend on the processing

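Of 178 comparisons of single genes with an alternative, 166 kept both direction and side of the threshold, 10 moved past the threshold in the same direction and 2 turned, the log2 difference of Samhd1 without tamoxifen 2 (-0.044) and without tamoxifen 3 (-0.030), where leaving out tamoxifen 1 gave 0.23. The 10 concerned Rtp4 in 5, Rsad2 and Lgals3bp in 2 each and Usp18 in 1. Cmpk2, Xaf1, Ifi27l2a and Ifi35 were called under none of the alternatives run. The number of effectors called higher, 0 with limma, became 2 with DESeq2 and 3 with library weights (Rsad2, Rtp4 and Lgals3bp). It ranged from 0 to 1 with limma when each library was left out, and was 2 with DESeq2 and 1 with edgeR without tamoxifen 1. The cause was not tested.

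Of the other interferon effectors, DESeq2 called 2 higher (0.437% of all genes) and library weights 6 higher (3.82% of all genes) and 1 lower. With a library left out the number higher was 0 to 1 with limma, 7 with DESeq2 and 1 with edgeR. Of the relatives of the 10 genes, library weights called 2 and DESeq2 without tamoxifen 1 called 1, which makes a range of 0 to 1 with a library left out. Of the 23 nucleotide genes tested, library weights called 1 higher, where 3.82% of all genes were called higher. Over all genes, DESeq2 called 69 higher and 2 lower of the 15784 with an adjusted p. Library weights called 470 higher and 312 lower of the 12298 tested, and the GC correction 2 higher. Without tamoxifen 1, limma called 38 higher and 3 lower, DESeq2 174 and 56 and edgeR 43 and 3. Leaving out any other library gave 0 with limma and was not run with DESeq2 or edgeR.

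The replicate block left 0 effectors and 0 genes called (426 genes at an unadjusted p under 0.05, 550 without the block). The numbers share only a label: the deviations of libraries of the same number correlated at -0.024, 0.061 and -0.15. The median of all genes lay within 0.1 of 0 on the log2 scale under the alternatives run except with DESeq2 (0.11). Rsad2, Cmpk2 and Phf11b rest on at most 24 reads in any library, and depth limits what can be said of them and of Ifi44.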
